A study of Drosophila melanogaster with 4 samples.

Results

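Of 124 transposon entries counted in these direct RNA sequencing data, 46 had fewer than 10 reads in each of the 4 libraries, and 13 of those had no read at all. These 46 low-read transposons were chosen by their read numbers: the counts were summed over all positions of an entry, satellites, other repeats, Stellate and Su-Ste were left out, and an entry was kept when its sum stayed below 10 in every library. The read numbers below are therefore a description of the choice and were not tested. Class, consensus length, the place where reads ended and the copies annotated in the reference genome played no part in it.

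The 4 libraries were made from poly(A) RNA of *Drosophila melanogaster*, 1 library in each group, so there is no replicate error. Ovaries came from Tj-GAL4>arrestin2GD flies, the control, and from Tj-GAL4>vretenoGD flies, in which a driver that acts in the ovarian soma targeted the piRNA factor *vreteno* with a hairpin. OSCs are somatic follicle cells grown as a line, and were given siGFP as control or siPIWI against *piwi*. The driver is not active in germ cells, which make up much of an ovary and are lacking in OSCs, and levels of *vreteno* and *piwi* were not analysed here.

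Transposons are DNA sequences that copy or move themselves within a genome. LTR retrotransposons are transcribed between long terminal repeats and copied through RNA, and those of the gypsy group can carry an envelope gene like that of retroviruses. Non-LTR retrotransposons also move through RNA but have no terminal repeats, and the RNA normally runs to the 3′ end of the element. DNA transposons move by means of a transposase and need no RNA copy of themselves, and in the fly ovary all these classes are restrained by piRNAs, small RNAs bound by Argonaute proteins of the Piwi class.

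Transposon reads numbered 2382 for control ovaries and 5156 for the vreteno knockdown, and 57045 for siGFP and 164243 for siPIWI OSCs. A limit of 10 reads therefore stood for 0.420% of transposon reads in control ovaries and for 0.00609% in siPIWI OSCs. Below that limit were 93 entries in control ovaries, 80 in the vreteno knockdown, 70 in siGFP OSCs and 51 in siPIWI OSCs. The siPIWI library on its own excluded more entries than any other library did. Of the 78 entries outside the set, 14 passed the limit there and in no other library. For the vreteno knockdown library this number was 2, for control ovaries 1 and for siGFP OSCs 0.

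The 46 comprised 17 LTR elements, 17 non-LTR elements and 12 DNA transposons. Over all 124 entries the numbers were 64, 35 and 25. LTR elements thus made up 37.0% of the low-read set and 51.6% of all entries. Seen by class, 26.6% of LTR entries, 48.6% of non-LTR entries and 48.0% of DNA entries were low-read. By family, the 46 held 14 of 52 Ty3/gypsy elements, 2 of 7 Bel-Pao elements and 1 of 5 Ty1/copia elements. They held 12 of 22 non-LTR elements of the jockey clade, 3 of 5 of the R1 clade, 5 of 9 Tc1-mariner elements and 3 of 5 Transib elements. None of the 3 telomeric retrotransposons, HeT-A, TAHRE and TART-A, was among them. Classes and families were assigned from general knowledge of each named element, and these shares were not tested.

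Low-read consensus sequences ranged from 564 nt to 8524 nt, with a median of 3999.5 nt, against a median of 5422.5 nt and a range of 594 nt to 13424 nt for the other 78. By median, LTR consensus sequences were the longest and DNA ones the shortest in both sets. Within the LTR class the medians were 6853 nt and 7345 nt, within the non-LTR class 3216 nt and 4798 nt, and within the DNA class 1735.5 nt and 2121 nt. Consensus sequences below 2000 nt numbered 13 among the 46 and 6 among the other 78. In the non-LTR class, 4 of 17 low-read entries and 0 of 18 others were that short.

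**Figure D1:**
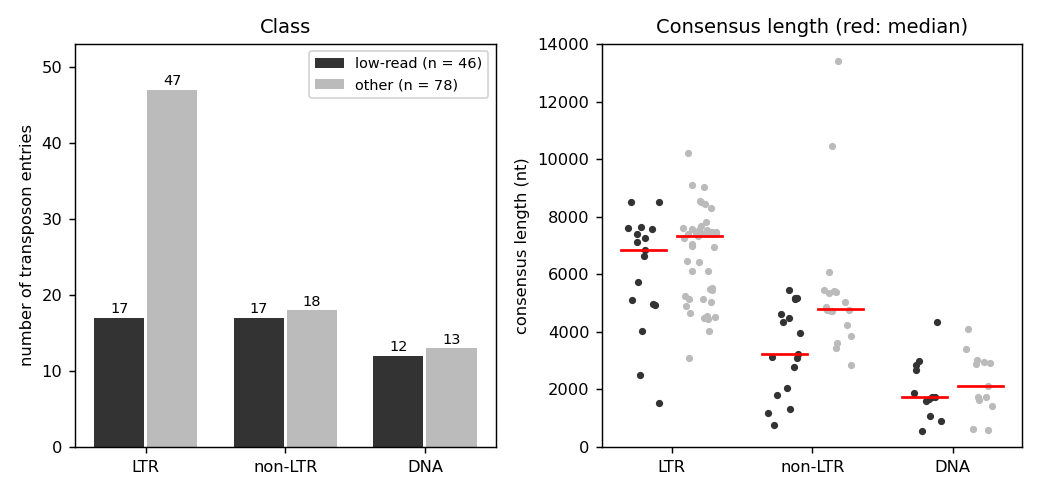
Left, number of transposon entries in each class among the 46 low-read entries (dark bars) and the other 78 (grey bars). Right, consensus length in nt of each entry (points) with the median of each set (red line); low-read medians are 6853 nt for LTR, 3216 nt for non-LTR and 1735.5 nt for DNA elements, each below that of the other entries of its class.

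No read was found in any library for 13 entries, 6 LTR, 5 non-LTR and 2 DNA. A count of 0 allows up to 3 reads, which is 0.126% of transposon reads in control ovaries, 0.0582% in the vreteno knockdown, 0.00526% for siGFP OSCs and 0.00183% in siPIWI OSCs. These limits cover counting error only, and they are widest in the ovary, where absence is least certain. The LTR elements without a read were gypsy7 (5734 nt), gypsy8 (4955 nt), gypsy9 (7105 nt), invader5 (4038 nt), the Ty1/copia element frogger (2483 nt) and the entry tirantS (8508 nt), whose name marks it as the *D. simulans* form of Tirant. The non-LTR elements were the G-element (4346 nt), G7 (1192 nt), Fw2 (3961 nt) and BS4 (754 nt), all of the jockey clade, and R1-2 (3216 nt), related to the R1 elements that insert into ribosomal RNA genes. The DNA elements were Bari2 (1064 nt), of the Tc1-mariner family, and Helitron (564 nt), of a class that replicates by a rolling circle.

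The other 33 low-read elements had 176 reads in all. The highest library held 1 read for 14 of them, 2 for 6, 3 for 6, 4 for 2, 5 for 1, 7 for 3 and 8 for 1. A read was seen in all 4 libraries for 8 elements, in 3 libraries for 9, in 2 for 10 and in 1 for 6. Just outside the limit were 12 entries with 10 to 19 reads in their highest library. These were hopper and McClintock (10 reads each), G5 and INE-1 (12 each), Ivk (13), micropia, Rt1c and R2-element (14 each), X-element and gypsy11 (15 each), and jockey2 and G4 (16 each). The values ran on across the limit, from 8 reads for the highest element inside to 10 for the lowest outside.

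**Figure D2:**
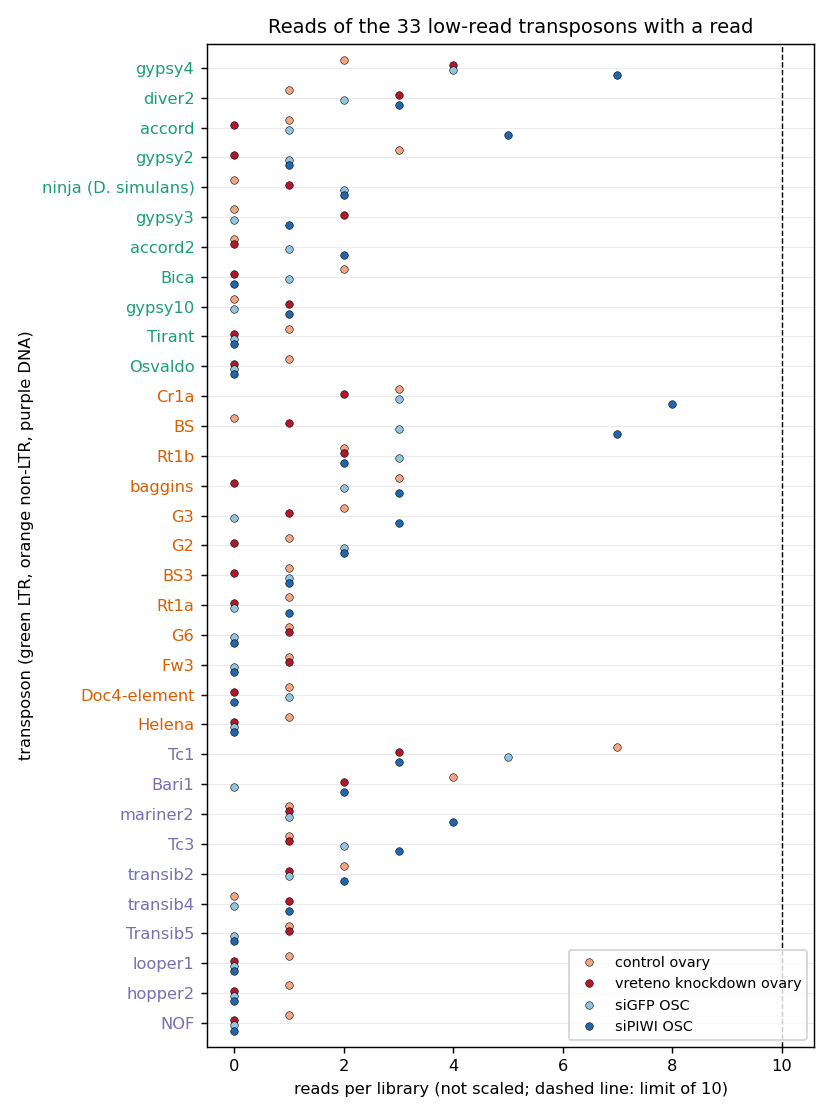
Reads per library, not scaled for depth, of the 33 low-read transposons with at least 1 read, coloured by library and grouped by class. Most points lie at 0 to 3 reads; the highest is Cr1a with 8 reads in siPIWI OSCs, and the limit of 10 reads is dashed.

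Among the LTR elements, gypsy4 (6853 nt) had the most reads, with 2 in control ovaries, 4 in the vreteno knockdown, 4 in siGFP OSCs and 7 in siPIWI OSCs. The element accord (7404 nt) had 1, 0, 1 and 5 reads in the same order. The related entry accord2 (7644 nt) was the only element of the 46 with reads in OSCs and none in ovary, 1 with siGFP and 2 with siPIWI. Outside the set, Rt1c, micropia and invader6 also had reads in OSCs and none in ovary. The Bel-Pao element diver2 (4917 nt) had 1, 3, 2 and 3 reads, while its namesake diver lay far outside the limit, with 2 reads in each ovary library, 214 in siPIWI OSCs and 515 over the 4 libraries.

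Tirant (8524 nt), an endogenous retrovirus of the gypsy group with an envelope gene, had 1 read in control ovaries and 0 in the other 3 libraries. Other members of that group were among the most abundant entries of the knockdown libraries: springer had 15 and 383 reads in control and vreteno knockdown ovaries and 9220 and 31023 in siGFP and siPIWI OSCs. Reads in the same order of libraries were 3, 0, 1 and 1 for gypsy2 (7600 nt), 0, 2, 0 and 1 for gypsy3 (7565 nt) and 0, 1, 0 and 1 for gypsy10 (7275 nt). Bica (5107 nt) had 2, 0, 1 and 0. Osvaldo (1543 nt), an element known from *D. buzzatii*, had 1 read in control ovaries and 0 elsewhere. The entry ninja (6644 nt), a Bel-Pao element named for *D. simulans*, had 0, 1, 2 and 2. None of the numbered gypsy elements in the set exceeded 7 reads, while gypsy5, gypsy6 and gypsy12 reached 141, 79 and 1204 reads in siPIWI OSCs.

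Among the non-LTR elements, Cr1a (4470 nt) had 3 reads in control ovaries, 2 in the vreteno knockdown, 3 in siGFP OSCs and 8 in siPIWI OSCs, the highest single count of the 46. BS (5142 nt), a jockey-clade element, had 0, 1, 3 and 7 reads. Its named relatives were lower, with 1, 0, 1 and 1 for BS3 (1790 nt) and none for BS4. Rt1b (5183 nt), of the R1 clade, had 2, 2, 3 and 2 reads, nearly the same number in libraries that differ widely in transposon reads. Rt1a (5183 nt) had 1, 0, 0 and 1, and Rt1c, just outside the limit, 0, 0, 7 and 14. The LOA-clade element baggins (5453 nt) had 3, 0, 2 and 3.

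The G elements of the jockey clade were spread across the limit. G-element and G7 had no read, and G6 (2042 nt) had 1 in each ovary library and 0 in both OSC libraries. G2 (3102 nt) had 1, 0, 2 and 2 reads and G3 (4605 nt) 2, 1, 0 and 3. Outside the limit, G4 had 16, 7, 3 and 4, G5 had 3, 12, 8 and 5, and G5A had 29, 31, 32 and 31. The remaining non-LTR elements were Fw3 (3132 nt) with 1, 1, 0 and 0, Doc4-element (2791 nt) with 1, 0, 1 and 0, and Helena (1317 nt) with 1 read in control ovaries and 0 elsewhere. Doc itself reached 176 reads in control ovaries, and Doc3-element 90 in siPIWI OSCs.

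Among the DNA transposons, Tc1 (1666 nt) had 7 reads in control ovaries, 3 in the vreteno knockdown, 5 in siGFP OSCs and 3 in siPIWI OSCs, the most of any of the 46 in control ovaries. Bari1 (1728 nt) had 4, 2, 0 and 2, Tc3 (1743 nt) 1, 1, 2 and 3, and mariner2 (912 nt) 1, 1, 1 and 4. These elements belong to the Tc1-mariner family, whose members encode a single transposase. Their relative pogo lay far outside the limit, with 218, 139, 120 and 195 reads. Of the Transib elements, transib2 (2844 nt) had 2, 1, 1 and 2 reads, transib4 (2656 nt) 0, 1, 0 and 1, and Transib5 (3001 nt) 1, 1, 0 and 0. NOF (4347 nt), found together with foldback elements, hopper2 (1593 nt) and looper1 (1881 nt), of the piggyBac family, each had 1 read in control ovaries and 0 elsewhere.

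The 6 elements with 1 read over all libraries, Helena, NOF, Osvaldo, Tirant, hopper2 and looper1, all had it in control ovaries, the library with fewest transposon reads. Reads in ovary and none in OSCs were seen for 9 elements, these 6 and Fw3, G6 and Transib5, with 9 reads in control and 3 in vreteno knockdown ovaries. Each of the 78 other entries had a read in siPIWI OSCs, so over all 124 entries the number was also 9. For 1 such element with reads in ovary only, no difference between tissues was detectable. A count of 1 in control ovaries is 0.0420% of transposon reads with an exact 95% interval of 0.00106% to 0.234%, and 0 reads in siPIWI OSCs allow up to 0.00183%.

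As a set, the 46 had 47 reads in control ovaries, 29 in the vreteno knockdown, 36 in siGFP OSCs and 64 in siPIWI OSCs. This was 1.97% of transposon reads (exact Clopper-Pearson 95% interval 1.45 to 2.62), 0.562% (0.377 to 0.807), 0.0631% (0.0442 to 0.0874) and 0.0390% (0.0300 to 0.0498). The order was the same without copia, which alone took 41777 reads in siGFP and 86920 in siPIWI OSCs. The shares were then 2.49%, 0.682%, 0.236% and 0.0828%. In absolute number, 27 of the 46 had a read in control ovaries, 18 in the vreteno knockdown, 18 in siGFP OSCs and 22 in siPIWI OSCs. In bulk RNA, fewer cells that carry an RNA and less of it per cell cannot be told apart. A fixed limit of 10 reads caps the share of any element more tightly in a library with more transposon reads. The fall of the share with transposon reads therefore follows in part from the choice. Transposon reads are not library depth, which is unknown. The vreteno knockdown library relative to control ovaries was 2.16 by total transposon reads. It was 0.903 by the median ratio of transposons with 10 reads or more on both sides, and 0.603 by non-transposon reads.

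The reads of each knockdown library are set beside those of its control as a description, since the limit of 10 reads was put on the knockdown libraries too and so caps any rise. An element that passed it in siPIWI OSCs, as 14 entries did there alone, is not among the 46. In ovary the raw count was higher with the knockdown for 7 of the 32 elements with a read, lower for 19 and equal for 6. In OSCs it was higher for 16 of 24, lower for 4 and equal for 4. Raw counts are not scaled for depth, and siPIWI OSCs had 164243 transposon reads against 57045 for siGFP. The directions were not counted over all entries, so nothing is read from them. The size and the direction of the summed fold rested on the scaling. Scaled by the median knockdown-to-control ratio of the transposons with 10 reads or more on both sides, 0.903 in ovary and 1.99 in OSCs, the fold was 0.683 in ovary (47 control and 29 knockdown reads, exact conditional 95% interval 0.415 to 1.11) and 0.896 in OSCs (36 control and 64 knockdown reads, 0.586 to 1.39). Scaled by total transposon reads it was 0.285 in ovary (0.173 to 0.462) and 0.617 in OSCs (0.404 to 0.956), and unscaled reads gave 1.78 in OSCs (1.16 to 2.75).

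Single elements had too few reads for a fold to be told from 1, and the limit of 10 reads largely fixes this, so nothing is read from it. The counting interval of the scaled fold lay above 1 for 0 of 32 low-read elements in ovary and below 1 for 0, beside 19.6% and 1.87% of the 107 entries with a read. In OSCs it lay above 1 for 0 of 24 and below 1 for 0, beside 26.5% and 10.8% of 102 entries. The fold in OSCs was 1.34 for Cr1a (0.322 to 7.86), 1.18 for BS (0.268 to 7.04), 2.52 for accord (0.282 to 119) and 0.302 for Tc1 (0.0469 to 1.55). Changes of several-fold in either direction were therefore not detectable at this depth, and the intervals compare libraries rather than conditions.

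The place where the reads ended was not used in the choice. What each count stands for is not given, and the counts were read as 3′ read ends. That reading rests in part on their lying mostly near 3′ ends, so their nearness to the 3′ end is no separate evidence for it. Of the 176 reads, 112 lay in the last 10% of the consensus, 63.6% (56.1 to 70.7), and 40 in the first 50%. In OSCs the reads lay close to the 3′ end, with 27 of 36 in the last 10% for siGFP (75.0%, 57.8 to 87.9) and 51 of 64 for siPIWI (79.7%, 67.8 to 88.7). In ovaries the share was lower, with 21 of 47 in the control (44.7%, 30.2 to 59.9) and 13 of 29 in the vreteno knockdown (44.8%, 26.4 to 64.3). Both ovary intervals lay below that of siPIWI OSCs and overlapped that of siGFP OSCs. With 2 libraries per tissue no test over libraries was made, and ovaries and cultured cells differ in transposon reads and in cell make-up as well.

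**Figure D3:**
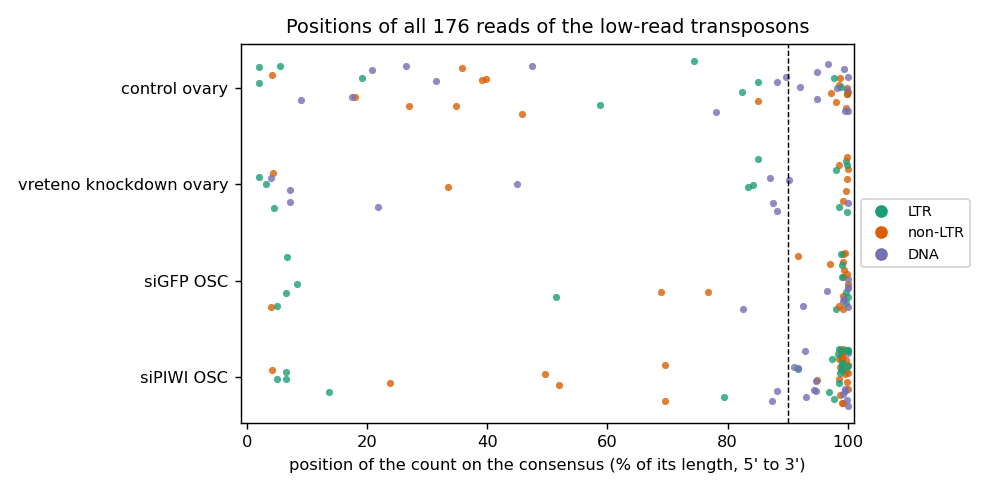
Each point is 1 of the 176 reads of the low-read transposons, placed by its position on the consensus (percent of length, 5′ to 3′) and by library, with small vertical jitter and coloured by class. The dashed line marks the last 10%, which holds 21 of 47 reads in control ovaries, 13 of 29 in the vreteno knockdown, 27 of 36 in siGFP OSCs and 51 of 64 in siPIWI OSCs.

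Added over both libraries of a tissue, 34 of 76 ovary reads (44.7%, 33.3 to 56.6) and 78 of 100 OSC reads (78.0%, 68.6 to 85.7) ended in the last 10%. Counting only the 23 elements with reads in both tissues kept 64 of the 76 ovary reads and 97 of the 100 OSC reads. It could therefore change the gap little and did not even out how many reads each element gave. The last 10% then held 28 of 64 reads in ovary (43.8%, 31.4 to 56.7) and 77 of 97 in OSCs (79.4%, 70.0 to 86.9). By class the intervals were wide. For DNA transposons 12 of 29 ovary reads (41.4%, 23.5 to 61.1) and 21 of 24 OSC reads (87.5%, 67.6 to 97.3) ended there, and these pooled intervals lay apart. The ovary libraries differed, with 10 of 19 in the control (interval 28.9 to 75.6) and 2 of 10 in the vreteno knockdown (2.52 to 55.6). In OSCs it was 8 of 9 for siGFP (51.8 to 99.7) and 13 of 15 for siPIWI (59.5 to 98.3). The control interval overlapped both OSC intervals, and that of the knockdown lay below siPIWI only. Few elements gave many of the DNA transposon reads, and over all libraries Tc1 had 15 of 18 in the last 10% and Bari1 0 of 8. The intervals treat reads as independent, so a tissue difference of the class was not tested. The intervals overlapped for LTR elements, with 8 of 22 (36.4%, 17.2 to 59.3) against 24 of 34 (70.6%, 52.5 to 84.9), and for non-LTR elements, with 14 of 25 (56.0%, 34.9 to 75.6) against 33 of 42 (78.6%, 63.2 to 89.7). The lower non-LTR share was that of control ovaries, with 8 of 17 reads (47.1%), while the vreteno knockdown with 6 of 8 (75.0%) was near siGFP with 12 of 15 and siPIWI OSCs with 21 of 27 (77.8%).

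Among the other transposons without copia the share was 69.4% (68.2 to 70.6) in ovary and 74.9% (74.6 to 75.2) in OSCs, but most of these reads were LTR reads, and the libraries of a tissue differed. The other LTR elements had 301 of 762 reads there (39.5%) in control ovaries, 71.4% in the vreteno knockdown, 71.2% in siGFP and 75.6% in siPIWI OSCs. A low share in control ovaries was thus also found in LTR elements outside the set. Of those 762 control reads, 441 (57.9%) lay in the first 50% of the consensus, against 26.2%, 25.8% and 21.8% in the other libraries, in the same order. LTR elements have a long terminal repeat at each end, and how reads matching both were placed is not known. Whether LTR reads in the first 50%, in either set, belong to the other repeat was not tested. In the last 10% the other non-LTR elements had 84.1%, 86.6%, 81.0% and 82.5% in the same order of libraries, and the other DNA transposons 73.0%, 72.3%, 70.2% and 65.6%. The 12 entries just outside the limit went the other way, with 65 of 78 reads (83.3%, 73.2 to 90.8) in ovary and 130 of 198 (65.7%, 58.6 to 72.2) in OSCs.

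**Figure D4:**
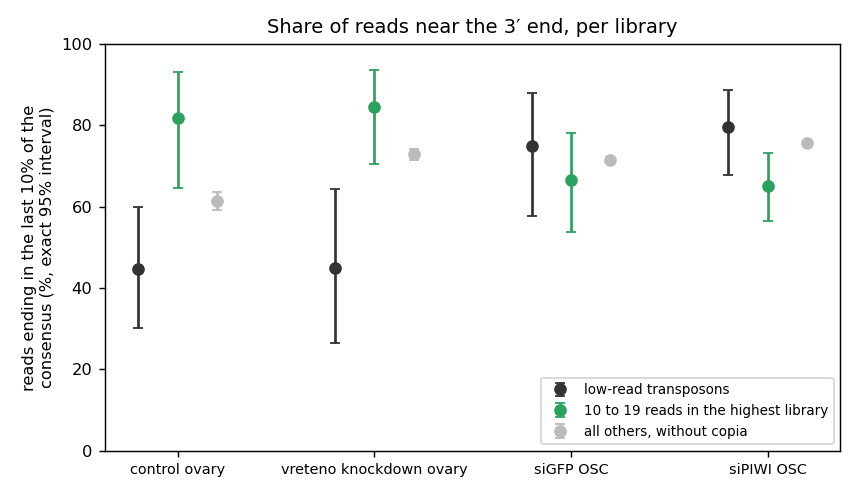
Share of reads (percent, with exact 95% intervals) ending in the last 10% of the consensus in each library, for the 46 low-read transposons, for the 12 entries just outside the limit and for the 77 other entries without copia, which include those 12. The low-read set lies at 44.7% and 44.8% in the ovary libraries, below both other sets, and at 75.0% and 79.7% in the OSC libraries.

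The elements differed in where their reads ended. All 11 BS reads lay in the last 100 nt, as did all 6 G3 reads and all 5 G2 reads. All 11 BS reads were from 3 libraries, and 4 of them shared position 5103 of 5142. Of 18 Tc1 reads, 9 lay on the last nucleotide, position 1666, with at least 1 in each of the 4 libraries. The BS reads fell on 6 positions and those of G2 and G3 on 3 each, so they lay near the 3′ end without 1 common end. No count can lie beyond position 1666 of Tc1, so its shared position was not read as an end of the RNA. In all, 9 elements had every read in the last 10%, 19 had reads there and elsewhere, and 5 had none there.

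Bari1 was the clearest case of the last kind, since none of its 8 reads lay in the last 10%. Its most frequent end was position 1523 of 1728, with 1 read in each of 3 libraries, and 3 further ovary reads ended at positions 156, 360 and 376. The other 4 without an end there were NOF, Osvaldo, Tirant and Transib5, with 1 or 2 reads each. The only Tirant read ended at position 5012 of 8524. Cr1a reads were scattered, with 15 distinct positions for 16 reads and 8 of the 16 in the first 50%. Its 8 siPIWI reads included 6 in the last 10%, whereas none of its 5 ovary reads was there. Its 3 siGFP reads lay at positions 179, 3433 and 4102 of 4470, and only that at 4102 was in the last 10%. The ovary reads in the first 50% came from 15 elements and numbered 28, led by Cr1a with 5 and by Bari1, Tc1 and gypsy4 with 3 each.

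Some ends recurred in spite of the small numbers. The 176 reads fell on 136 positions. Of these, 25 held 2 reads or more, 65 reads in all, and 17 positions were seen in at least 2 libraries. The last position of Tc1, with 9 reads, is among them, though it was not read as an end of the RNA. Among the elements with 2 reads or more, 16 of 27 had such a repeated position. In ninja, position 6624 of 6644 held 1 read in each of 3 libraries.

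The reference genome was then used to ask how many copies of each low-read element a fly genome may hold. The BDGP6 annotation lists 5896 transposon insertions, of which 5702 carried a name matched to 113 of the 124 entries. Of these, 9 repeated the coordinates and strand of another of the same entry and were counted once, which left 5693, of which 832 belonged to 42 of the 46 low-read ones. Osvaldo, Bica, Transib5 and tirantS were not matched. The genome of the flies and of OSCs is not that of the reference strain, and its copy numbers were not measured here. Low-read elements had a median of 12 annotated insertions, from 1 to 152, and the 71 matched others a median of 24, from 1 to 2235. The 13 without a read had fewer still, with a median of 4 over the 12 that were matched.

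A near-full-length copy, one spanning 90% to 110% of the consensus, was annotated for 31 of the 42 low-read elements (73.8%) and for 63 of the 71 others (88.7%). The median number of such copies was 1 and 5. By class the medians were 1 and 6 for LTR elements, 1 and 4 for non-LTR elements and 1 and 4 for DNA transposons. No copy of that length was listed for 11 low-read elements, which were Bari2, Fw3, G3, NOF, R1-2, accord, gypsy7, gypsy9, gypsy10, ninja and transib4. A span is measured from the first to the last base, so a copy with another element inside it can exceed 110%. Near full length is relative to the consensus of the entry, and whether that consensus is a complete element was not tested. For Helitron (564 nt) and BS4 (754 nt), the only annotated insertion spanned 564 bp and 749 bp. Of the 832 insertions, 320 lay in introns of annotated genes, 36 overlapped an exon and 476 lay between genes.

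Several elements without a read had only 1 near-full-length copy in the annotation. The only annotated Helitron insertion lay at X:23188499-23189062, between genes, and the only BS4 insertion at 3R:4582297-4583045, also between genes. The frogger copy as long as its consensus, at 2L:22315673-22318155, lay in an intron of *Marf1* on the same strand. The longest G7 copy, at 2R:4930773-4931964, lay in an intron of *Ir41a*, and the near-full-length Fw2 copy, at 3R:4497904-4501572, in an intron of *CG34357*. For invader5 the copy at X:22702054-22705746 lay within the noncoding gene *lncRNA:CR44997*, on the opposite strand. R1-2 had 2 annotated insertions, the longer of 1337 bp, 41.6% of the consensus. The most numerous of the 13 was gypsy8, with 56 insertions but a median span of 346 bp and 1 near-full-length copy, at 2R:4871711-4876644.

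Tirant had the most near-full-length copies of the 46. Of its 25 annotated insertions 18 were near full length, with spans of 7818 bp to 8527 bp, 14 of them in introns, 2 overlapping an exon and 2 between genes. It ranked 9 among the 57 matched LTR elements by such copies. In all, 14 LTR elements had at least 10, and for the other 13 the highest library held between 28 (HMS-Beagle) and 86920 reads (copia), with a median of 1472. Tirant had 1. Examples of its copies are those at 2R:10585613-10594139 in an intron of *psq*, at X:2308848-2317374 in an intron of *Raf* and at 3R:6158563-6167089 between genes. Of the 14 intronic copies 4 lay on the strand of the gene and 10 on the other. The *D. simulans* form tirantS also had no read.

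Rt1a was the only other low-read element with at least 10 near-full-length copies, 10 of 30 insertions, and had 2 reads. Bari1 followed with 9 such copies. It had 10 annotated insertions with a median span of 1728 bp, its consensus length, and 8 reads over the 4 libraries. Next came Rt1b and G6 with 8 copies, Tc1 with 7 and BS and mariner2 with 6. At the other end, Cr1a had 152 annotated insertions, the most of the 46, but 3 of near full length and a median span of 901 bp. Just outside the limit, INE-1 had 2235 insertions, 61 of them near full length, and at most 12 reads.

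**Figure D5:**
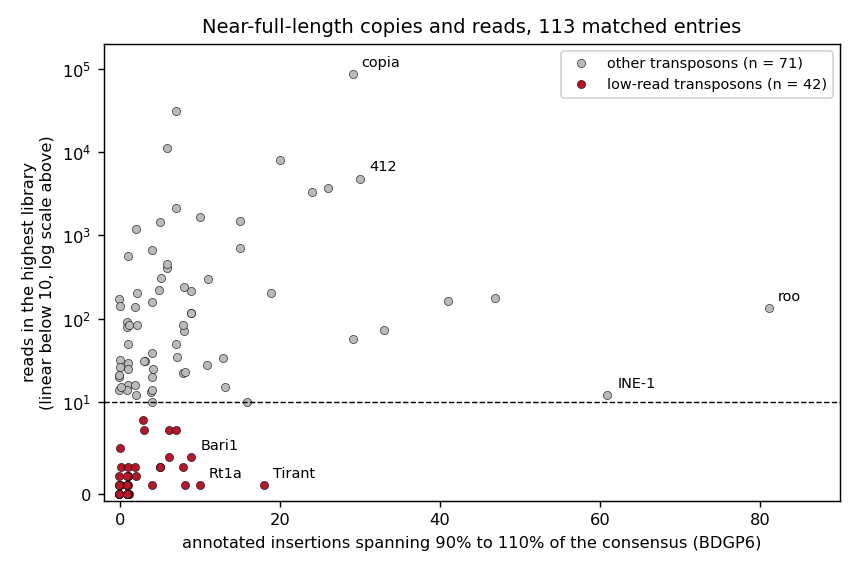
Number of annotated insertions spanning 90% to 110% of the consensus (horizontal, with small jitter) against reads in the highest library (vertical, linear below 10 and log scale above) for the 113 matched entries. The 42 low-read transposons (red) lie below the dashed limit of 10 reads by choice; Tirant, with 18 copies and 1 read, lies farthest to the right among them.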

How the data were processed

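Poly(A) RNA was sequenced with the RNA002 direct RNA kit, per the labels' protocols. The authors deposited whole-number counts at each position of 150 reference sequences, with columns for sequence, position and value, per the file headers. The submitters' processing notes name minimap2, and its version, the reference set, strand, filters and the treatment of reads matching several sequences are not given in the sources used here. The counts were read as 3′ read ends, because they fall on few scattered positions, mostly near 3′ ends. Of the 150 sequences, 26 were no transposons.

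Counts were summed per entry and library without normalization, with Python 3.11.15 and scipy 1.17.1. Full library depth is unknown. Shares have exact Clopper-Pearson 95% intervals, and folds exact conditional ones. A count of 0 was given a limit of 3 reads. Intervals cover counting error only. No p-value is given, since no group has a replicate. Insertions were taken by name from the Ensembl release 115 annotation of BDGP6, counting listings with identical coordinates as 1. The files hold consensus positions, so their genome build does not enter.

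The members and lists were chosen with earlier results of these data known. Every low-read element was named with its reads, as were the entries with 10 to 19 reads in their highest library. The use of the annotation, the counts of repeated ends and the elements singled out in both were chosen after the reads had been seen.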

Additional observations from a re-analysis of the deposited data

How the results depend on the processing

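No paired analysis was possible because each group has 1 library. Over the alternatives tried, 38 values stayed within 1.5 times the main count or within its interval, and 4 did not. The number of low-read transposons was 46 with the limit of 10, 41 with 5 and 58 with 20, and it ranged from 46 to 60 when a library was left out, 60 being the value without siPIWI OSCs. It rose to 80 when the limit was put on the share of transposon reads (that of 10 reads in control ovaries). The highest position in place of the sum gave 68. Each of the wider sets contained all 46. The scaled fold of the summed reads in ovary was 0.285 with total transposon reads (interval 0.173 to 0.462, apart from 1) and 1.02 with non-transposon reads, so its direction rests on the scaling. In OSCs it was 1.78 without scaling (1.16 to 2.75) and 0.617 with total transposon reads (0.404 to 0.956). The share of ends in the vreteno knockdown library was 65.5% for the last 20% of the consensus, against 55.3% in control ovaries, 77.8% in siGFP and 82.8% in siPIWI OSCs, so the gap between tissues was smaller there. Chosen after the data were seen, a span of at least 80% gave 37 low-read elements with a near-full-length copy and a span within 5% of the consensus length 24, against 31.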
